A study of Mus musculus with 2 samples.

Results

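Mir208a, Mir208b and Mir499 are the microRNA genes that lie within introns of myosin heavy chain genes of slow and cardiac muscle. They were selected by Ensembl gene identifier through GENCODE M21, and all 3 were found among the 2202 microRNA genes of both deposited count tables. The tables come from small RNA sequencing of total RNA from the gastrocnemius, a large calf muscle, of female B6CASTF1/J mice aged 25 days. These are F1 hybrids of the strains C57BL/6J and CAST/EiJ. The 2 libraries are biological replicates 2 and 1 of 1 group, with no treatment and no other tissue. Each library has its own female number in the labels, but the donor identifier is shared, so it is open to doubt whether the spread between them is a spread between animals.

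These microRNAs are processed from introns of the myosin transcripts that carry them, so their supply is coupled to transcription of the host gene. Myh6 encodes the fast cardiac myosin of the adult rodent heart, and Mir208a within it is known in mice as a heart microRNA of the response to cardiac stress. Myh7 encodes the slow myosin of slow skeletal fibres and of the embryonic heart, and carries Mir208b. Myh7b, a related myosin gene, carries Mir499. In mice, miR-208b and miR-499 are known to act together to maintain slow fibres, partly by restraining Sox6, a repressor of slow fibre genes. The gastrocnemius of the mouse is made up mainly of fast fibres. The tables hold no messenger RNA, so fibre type and the host transcripts were not measured here.

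The mature strands that carry the family's shared seed are shown because they define the family. Capitals mark the seed, bases 2 to 8 counted from the 5′ end. The sequences are RefSeq's, on the GRCm38.p6 build.
miR-208a-3p: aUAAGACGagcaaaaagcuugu
miR-208b-3p: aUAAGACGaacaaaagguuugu
miR-499-5p: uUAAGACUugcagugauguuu
The seed UAAGACG was identical in miR-208a-3p and miR-208b-3p, and among 1738 mature mouse microRNAs searched no other had it. miR-499-5p shared bases 2 to 7 with both and differed from miR-208a-3p at the last base of the seed, G8U. Only these 3 of the 1738 mature sequences had UAAGAC at bases 2 to 7. miR-208a-3p and miR-208b-3p were identical at 19 of 22 positions, with the differences G10A, A16G and C18U, counted from the 5′ end with the base of miR-208a-3p given before the position. Over the whole strand, seed included, miR-499-5p was identical to miR-208a-3p at 12 and to miR-208b-3p at 10 of 21 positions compared. All differences but G8U lay outside the seed.

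The hairpins are shown because the counts belong to whole hairpins, so that reads from the arms of a hairpin could not be told apart. Capitals mark the mature strand with the shared seed.
Mir208a: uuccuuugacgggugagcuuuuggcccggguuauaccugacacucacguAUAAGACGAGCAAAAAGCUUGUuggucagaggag
Mir208b: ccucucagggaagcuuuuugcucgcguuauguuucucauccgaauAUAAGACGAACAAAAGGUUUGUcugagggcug
Mir499: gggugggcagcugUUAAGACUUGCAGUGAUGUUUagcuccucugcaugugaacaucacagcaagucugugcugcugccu
The strand with the shared seed lies in the 3′ arm of both miR-208 hairpins, at bases 50 to 71 of Mir208a and 46 to 67 of Mir208b. In Mir499 it lies in the 5′ arm, at bases 14 to 34. The longest stretch that any of the 3 hairpins shared with another annotated mouse microRNA hairpin on either strand was 14 bases, between Mir208a and the opposite strand of Mir208b, among 2201 hairpins searched for each. No member therefore shared as much as 18 bases with another microRNA gene. The rest of the genome was not searched.

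All 3 hairpins were wholly intronic and on the strand of their host. In mm10, Mir208a (ENSMUSG00000065432.1) spans chr14:54949060-54949142 on the reverse strand, within intron 29 of Myh6, an intron of 542 bases in a transcript of 39 exons. Mir208b (ENSMUSG00000077928.1) spans chr14:54975700-54975776 on the reverse strand, within intron 31 of Myh7, an intron of 461 bases in a transcript of 41 exons. Mir499 (ENSMUSG00000076312.1) spans chr2:155622880-155622958 on the forward strand, within intron 19 of Myh7b, an intron of 481 bases in a transcript of 42 exons. Myh7 and Myh6 are neighbours in the same orientation, 3756 bases apart, and 26557 bases separate Mir208a from Mir208b. No annotated gene other than the host overlapped any of the 3 hairpins.

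**Figure D1:**
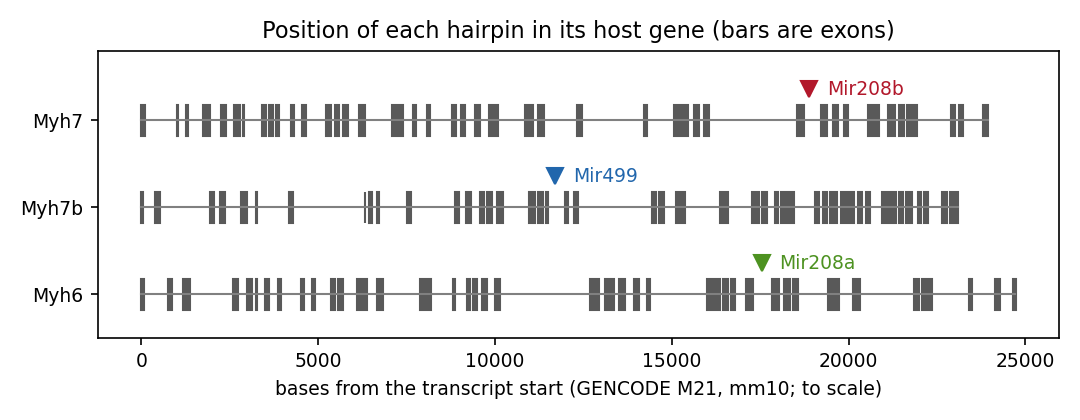
Exons (bars) of the Myh7, Myh7b and Myh6 transcripts drawn to scale against distance in bases from the transcript start, with a triangle at each microRNA hairpin. Mir208b and Mir208a lie in the later part of their hosts, in introns 31 and 29, and Mir499 lies near the middle of Myh7b, in intron 19.

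Replicate 2 held 5429127 reads on the gene strand of microRNA genes and replicate 1 held 1573213. Levels are given as counts per 1000000 of these reads (CPM). A count of 0 allows up to 3 counts, which is 0.553 CPM in replicate 2, against 1.91 CPM in replicate 1. Reads aligned to several places, 69.7% and 68.6% of all reads in replicates 2 and 1, were given to no gene. Of the 7 defining microRNA genes of striated muscle, 7 had counts in both libraries, with summed levels of 73585 CPM in replicate 2, against 35954 CPM in replicate 1. Nearly all of this came from Mir206, a microRNA gene specific to skeletal muscle. Of the 6 neuronal marker genes, Mir124a-1, Mir124a-2, Mir124a-3 and Mir9-2 were at 0 in both libraries. Mir9-1 had 1 count in replicate 2 and 0 in replicate 1, and Mir9-3 had 2 and 1. Reads that fit several of these loci would not have been counted, so the low counts do not show that neuronal microRNAs were absent. Intervals and tests below cover counting error only, as each library entered them as a single set of counts. No information on molecular identifiers was used.

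Mir208b was the most abundant of the 3 genes in both libraries. It had 5398 counts in replicate 2, which is 994 CPM (exact Poisson 95% interval 968 to 1021), and 345 counts in replicate 1, which is 219 CPM (197 to 244). Its mean was 607 ± 548 CPM (SD, n = 2). It ranked 71 in replicate 2 and 137 in replicate 1 among the 2202 genes. The library values did not overlap within counting error, and the SD was 90.3% of the mean. In bulk tissue, fewer cells of a type and less of a microRNA per cell cannot be told apart.

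Mir499 came next. It had 2258 counts in replicate 2, which is 416 CPM (exact Poisson 95% interval 399 to 433), and 296 counts in replicate 1, which is 188 CPM (167 to 211). Its mean was 302 ± 161 CPM (SD, n = 2), with ranks of 104 in replicate 2 and 147 in replicate 1. Here too replicate 2 was the higher library, by less than for Mir208b.

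Mir208a, the microRNA of the cardiac myosin gene Myh6, was the least abundant, 22.1-fold below Mir499 in replicate 2 and 6.04-fold below it in replicate 1. It had 102 counts in replicate 2, which is 18.8 CPM (exact Poisson 95% interval 15.3 to 22.8), and 49 counts in replicate 1, which is 31.1 CPM (23.0 to 41.2). Its mean was 25.0 ± 8.74 CPM (SD, n = 2), with ranks of 233 in replicate 2 and 223 in replicate 1. Both values lay well above the level that a count of 0 allows, and replicate 1 was the higher library. Counts were thus assigned to the cardiac member of the family in both gastrocnemius libraries, at a low level. Whether some of these counts were reads of the more abundant Mir208b was not tested.

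**Figure D2:**
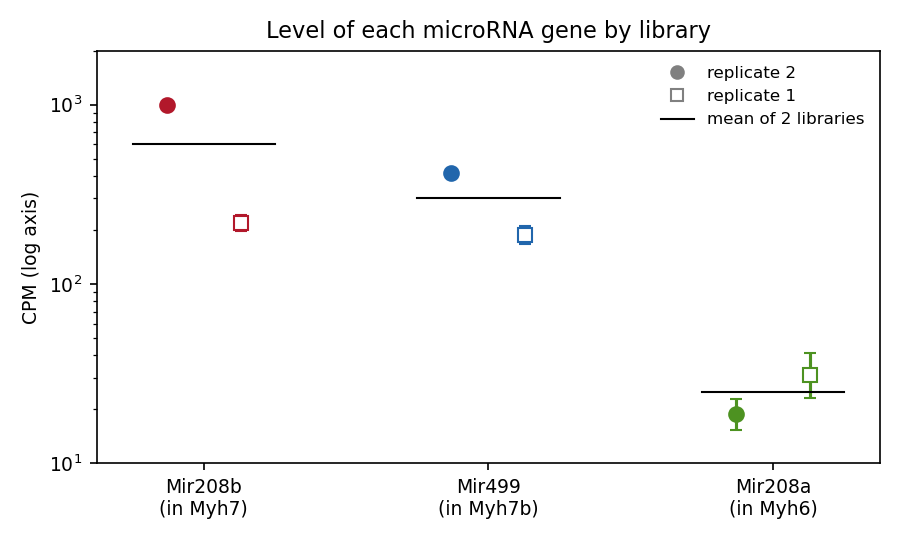
CPM on a log axis for each microRNA gene in replicate 2 (filled circles) and replicate 1 (open squares), with exact Poisson 95% intervals and the mean of the 2 libraries as a line. Mir208b, at 994 and 219 CPM, and Mir499, at 416 and 188 CPM, were higher in replicate 2, whereas Mir208a, at 18.8 and 31.1 CPM, was higher in replicate 1.

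The order Mir208b, Mir499, Mir208a was the same in both libraries, but the first step of it was firm in replicate 2 alone. In replicate 2 there were 2.39 Mir208b counts for each Mir499 count (exact 95% interval 2.28 to 2.51). In replicate 1 there were 1.17 (0.995 to 1.37), an interval that includes equal counts. The mean ratio was 1.78 ± 0.866 (SD, n = 2), and the means of Mir208b and Mir499 differed by less than the SD of Mir208b. The step from Mir499 down to Mir208a was wide in both, with 22.1 Mir499 counts for each Mir208a count in replicate 2 (18.1 to 27.3) and 6.04 in replicate 1 (4.45 to 8.35).

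The make-up of the family differed between the libraries. Mir208b held 69.6% of the 7758 counts of the 3 genes in replicate 2 (exact binomial 95% interval 68.5 to 70.6) and 345 of the 690 counts in replicate 1 (46.2% to 53.8%). Mir499 held 29.1% in replicate 2 (28.1 to 30.1) and 42.9% in replicate 1 (39.2 to 46.7). Mir208a held 1.31% in replicate 2 (1.07 to 1.59) and 7.10% in replicate 1 (5.30 to 9.28). None of these intervals overlapped between the libraries. The 3 shares are parts of the same total, so they are not separate differences. Differences beyond counting error were common, as 45.3% of the 364 genes tested were called between the libraries. Together the 3 genes held 0.143% of all microRNA-gene counts in replicate 2 and 0.0439% in replicate 1.

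The shares do not depend on library totals, and neither does the ratio of Mir208a to Mir208b. There were 0.0189 Mir208a counts for each Mir208b count in replicate 2 (exact 95% interval 0.0154 to 0.0230) and 0.142 in replicate 1 (0.103 to 0.192). The ratio was smaller in replicate 2, where its denominator Mir208b was higher. A higher denominator lowers the ratio by itself, so the ratio does not show an inverse relation between these genes. The mature strands differ at 3 of 22 positions, and whether alignment separated their reads completely was not tested.

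Mir208b and Mir499 were higher in replicate 2, and Mir208a was higher in replicate 1. Each gene was compared between the libraries by an exact binomial test, two-sided, whose odds were the library totals. Benjamini-Hochberg adjustment ran over the 364 genes with at least 10 counts in all, and an adjusted p under 0.05 was called. Of these genes, 45.3% were called, 15.1% as higher in replicate 2 and 30.2% as higher in replicate 1, so a call alone is common here. The test compares these libraries and not conditions. Over all tested genes, the log2 ratio (replicate 2 over replicate 1) had a median of -0.15.

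All 3 members reached the count minimum and were called. Mir208b was 4.53-fold higher in replicate 2, a log2 ratio of 2.18 (exact 95% interval 2.02 to 2.34; adjusted p = 3.96e-254, exact binomial test). Mir499 was 2.21-fold higher in replicate 2, a log2 ratio of 1.14 (0.97 to 1.32; adjusted p = 1.80e-44, exact binomial test). Mir208a had a log2 ratio of -0.74 (-1.23 to -0.21; adjusted p = 0.0116, exact binomial test), which is 1.67-fold higher in replicate 1. The call on Mir208a was lost when the libraries were scaled with TMM (adjusted p = 0.0613) or with DESeq2 size factors (adjusted p = 0.0771), in the same exact test. Those scalings gave log2 ratios of -0.56 and -0.53, and moved the median of all genes by 0.18 and 0.20.

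Over the 364 genes tested, Mir208b was at place 2, Mir499 at place 6 and Mir206 at place 8 from the highest log2 ratio of replicate 2 over replicate 1. Ranked by size in either direction they were at places 9, 37 and 49, and Mir208a was at place 86, so larger differences toward replicate 1 were found at other genes. Among the 243 genes with at least 30 counts in each library, a minimum chosen after the values were seen, Mir208b had the highest such ratio and Mir499 the next. Mir206 followed with a log2 ratio of 1.06, and then Mir381, a microRNA of the imprinted Dlk1-Dio3 region, with 0.97. Mir208a was at place 31 from the lowest.

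**Figure D3:**
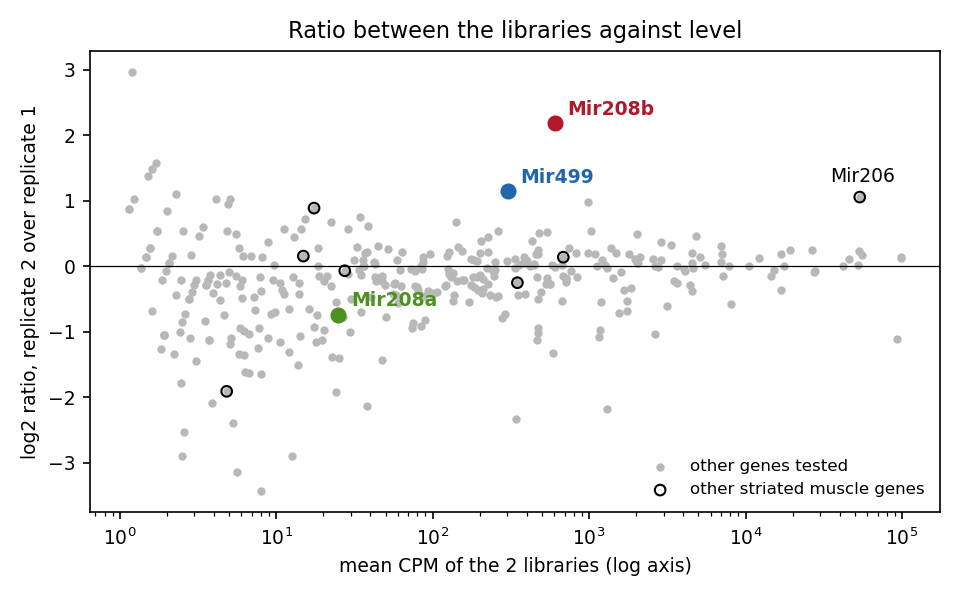
Log2 ratio of replicate 2 over replicate 1 against mean CPM (log axis) for the 364 genes tested; grey points are other genes, open circles are other striated muscle genes and coloured points are the 3 myosin intron genes. Mir208b (2.18) and Mir499 (1.14) lie above genes of like level, and Mir208a (-0.74) lies within the spread of genes of like level.

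The other microRNA genes of striated muscle did not move as one. Of 9 listed, 8 were in the tables under the symbol listed, and 7 were tested. Of these 7, 3 were called higher in replicate 2, 2 were called higher in replicate 1 and 2 did not pass. Over all 364 genes tested, 15.1% were called higher in replicate 2 and 30.2% higher in replicate 1. With TMM or DESeq2 size factors, 3 of the 7 were called higher in replicate 2, 1 higher in replicate 1 and 3 did not pass. The median log2 ratio of the 7, scaled to library totals, was 0.14, against -0.15 over all genes tested. Mir206 had 72482 CPM in replicate 2, against 34864 CPM in replicate 1, a log2 ratio of 1.06 (exact 95% interval 1.04 to 1.07). Mir486, in the ankyrin gene Ank1 and expressed in both muscle and red blood cells, had 717 CPM in replicate 2, against 651 CPM in replicate 1, a log2 ratio of 0.14. It overlaps Mir3107 on the opposite strand, so its level rests on the strand-specific counts. Mir3107 had 55 counts in replicate 2 and 12 in replicate 1. Whether reads of Mir486 were also lost among those aligned to several places was not tested, so its level is uncertain too. Mir133a-1 was higher in replicate 2, with 124 counts there and 19 in replicate 1, and Mir133a-2 was higher in replicate 1, with 11 counts in replicate 2 and 12 in the smaller replicate 1 library.

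Mir133b, which is clustered with Mir206, had 26.9 CPM in replicate 2, against 28.0 CPM in replicate 1, and did not pass the test under any of these scalings. Mir1a-2 was higher in replicate 1, at 318 CPM in replicate 2, against 378 CPM in replicate 1, with a log2 ratio of -0.25, but was not called with TMM (-0.07) or DESeq2 size factors (-0.05). Mir1a-1, at 15.8 CPM in replicate 2, against 14.0 CPM in replicate 1, did not pass. The levels of the miR-1 and miR-133 genes are uncertain, because several loci encode the same or a near-identical mature microRNA and reads aligned to several places were not counted. Mir1a-2 overlaps Mir1b on the opposite strand, so that its level rests on the strand-specific counts. Mir1b itself had 6 counts in replicate 2 and 1 in replicate 1, below the minimum for testing.

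**Figure D4:**
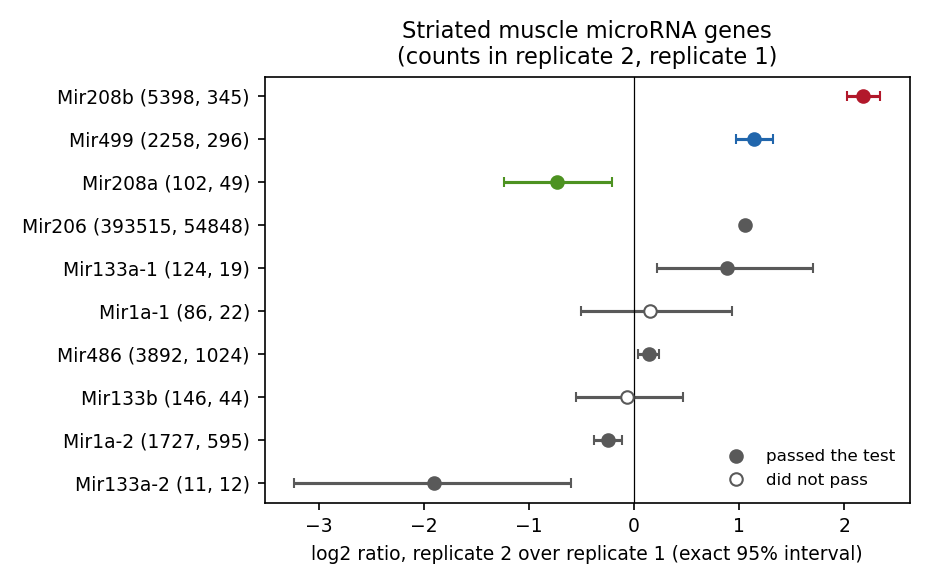
Log2 ratio of replicate 2 over replicate 1 with exact 95% intervals for the 3 myosin intron genes (coloured) and the 7 other striated muscle genes tested (grey), with counts in replicate 2 and replicate 1 beside each name. Filled points passed the exact binomial test; Mir208b lies farthest to the right, and Mir208a lies left of 0.

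Set against Mir206, the most abundant muscle microRNA gene of the tables, the proportion of Mir499 differed between the libraries by no more than counting error, whereas that of Mir208b differed by more. For each 1000 Mir206 counts there were 5.74 Mir499 counts in replicate 2 (exact 95% interval 5.50 to 5.98) and 5.40 in replicate 1 (4.80 to 6.05), and these intervals overlapped. For Mir208b there were 13.7 in replicate 2 (13.4 to 14.1) and 6.29 in replicate 1 (5.64 to 6.99), 2.18 times as many in replicate 2. For Mir208a there were 0.259 in replicate 2 (0.211 to 0.315) and 0.893 in replicate 1 (0.661 to 1.18). The denominator was chosen after the ratios were known. With Mir206 counts as the odds of the test, Mir499 had a log2 ratio of 0.09 and was not called (adjusted p = 0.365, exact binomial test). Mir208b remained called with a log2 ratio of 1.12 (adjusted p = 2.19e-55, exact binomial test). Since Mir206 was itself among the genes highest in replicate 2, this scaling lowered every log2 ratio by the same amount, a shift of -1.06. Of the 364 genes, 297 were then called higher in replicate 1 and 1, Mir208b, higher in replicate 2.

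Against Mir486 and Mir133b, the proportions of both Mir208b and Mir499 differed between the libraries. There were 1.39 Mir208b counts for each Mir486 count in replicate 2 (exact 95% interval 1.33 to 1.45) and 0.337 in replicate 1 (0.297 to 0.381). For Mir499 there were 0.580 in replicate 2 (0.551 to 0.611) and 0.289 in replicate 1 (0.253 to 0.329). For each Mir133b count there were 37.0 Mir208b counts in replicate 2 (31.4 to 43.9) and 7.84 in replicate 1 (5.72 to 11.0), and 15.5 Mir499 counts in replicate 2 (13.1 to 18.4) and 6.73 in replicate 1 (4.89 to 9.46). There were 0.699 Mir208a counts for each Mir133b count in replicate 2 (0.537 to 0.906) and 1.11 in replicate 1 (0.726 to 1.71), with overlapping intervals. The overlap seen for Mir499 against Mir206 thus did not extend to Mir486 and Mir133b. The counts of both these denominators may lack reads that aligned to several places.

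**Figure D5:**
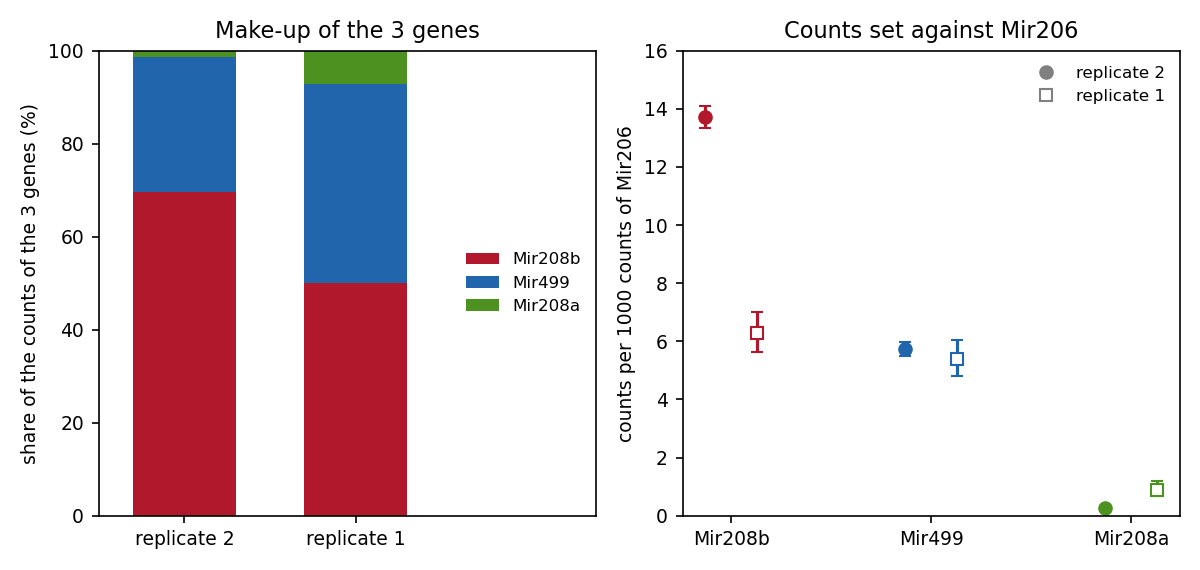
Left, share in percent of the summed counts of the 3 genes held by each, in replicate 2 and replicate 1; right, counts of each gene per 1000 counts of Mir206 in replicate 2 (filled circles) and replicate 1 (open squares) with exact 95% intervals. Mir208b held 69.6% in replicate 2 and 345 of 690 counts in replicate 1, and the Mir499 values of 5.74 and 5.40 per 1000 overlap.

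Levels of markers of other cell types differed between the libraries too, though not all in the same direction. Summed levels of the 6 smooth muscle and fibroblast genes were 63422 CPM in replicate 2, against 132934 CPM in replicate 1, most of it Mir143. In this list 3 of the 5 genes tested were called higher in replicate 1, against 30.2% of all 364 genes tested. Mir199a-2 was not called, and Mir214 went the other way, with 2355 CPM in replicate 2, against 1674 CPM in replicate 1. The 2 erythroid genes summed to 587 CPM in replicate 2, against 2703 CPM in replicate 1. Mir338, of myelinating glia, had 749 CPM in replicate 2, against 1581 CPM in replicate 1. The 4 white blood cell genes summed to 2002 CPM in replicate 2, against 2701 CPM in replicate 1. Among these 4, Mir142 had 336 CPM in replicate 2, against 839 CPM in replicate 1. Mir155 and Mir223 were called higher in replicate 1 by less, with log2 ratios of -0.16 and -0.45. Mir150 was not called, at 579 CPM in replicate 2, against 574 CPM in replicate 1. The endothelial genes Mir126a and Mir126b summed to 103367 CPM in replicate 2, against 93329 CPM in replicate 1. Nearly all of this was Mir126a, as Mir126b had 1 count in each library. The part of these differences in the results on Mir208a, Mir208b and Mir499 was not tested.

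Likeness of pattern could be judged from 2 libraries only. Among genes with a mean CPM from 0.5 to 2 times that of the member, the 3 nearest in log2 ratio were taken. None of the 55 candidates came near Mir208b: the nearest was Mir381, with a log2 ratio of 0.97, lower by 1.20. Mir483 with 0.53 and Mir423 with 0.52 followed. Mir499 had a nearer log2 ratio, 1.14, but its mean of 302 CPM fell just below the lower bound for Mir208b, whose mean was 607 CPM. Mir208b likewise fell just above the upper bound for Mir499. For Mir499 the nearest of 68 were Mir128-2 with 0.54, Mir423 with 0.52 and Mir146 with 0.51. Mir208a had close company, with Mir3058 at -0.74, Mir669c at -0.77 and Mir467c at -0.69 among 57 candidates. Mir3058 had 13.8 CPM in replicate 2, against 22.9 CPM in replicate 1. All of these ratios share the same libraries and totals.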

How the data were processed

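Small RNA libraries of the gastrocnemius were analysed from 1 table of raw counts per library, deposited without a header. The assembly, per the labels, was mm10 and the annotation, per the deposited readme files, was M21; the sources used here name no aligner, counting tool or filter. Each table holds 3 count columns, which from their values are either-strand, gene-strand and opposite-strand reads, and 4 tally rows that name no gene. Gene-strand counts were used and the tally rows, 77.5% and 78.6% of reads in replicates 2 and 1, stayed out of totals. All 2202 identifiers matched GENCODE M21. CPM are gene-strand counts scaled to 1000000.

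Log2 ratios used an offset of 0.5 counts. Intervals are exact (Poisson, or Clopper-Pearson for shares and ratios) at 95%. The exact binomial test of library ratios was checked on simulated counts with known changes, drawn with counting error only. That check does not cover any wider spread between real libraries. edgeR 4.0.16 (TMM) and DESeq2 1.42.0 in R 4.3.3 gave alternative scalings only, as 2 libraries of 1 group allow no test between conditions. The rest ran in Python 3.11.15 (scipy 1.17.1, numpy 2.4.6, pandas 2.3.3; figures in matplotlib 3.10.9). Sequences are RefSeq's (GRCm38.p6), with all 3 genes matched by symbol. Named genes were the members, a list of 9 other striated muscle genes, microRNA genes in Myh genes, genes near or alike in sequence, and the 3 nearest in ratio. The members and lists were chosen with earlier results of these data known. Alternatives were the either-strand column, other denominators, scalings, offsets and count minimums, and each replicate left out of the levels.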

Additional observations from a re-analysis of the deposited data

Results flagged for a closer look

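Multiply aligned reads stand outside all gene counts and were plentiful, at 69.7% of the reads of replicate 2 and 68.6% of those of replicate 1. The tally does not say how many of them came from microRNA genes.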

How the results depend on the processing

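Per 1000000 of all reads in the tables, a larger denominator, the mean levels were lower for all 3 members, at 5.44 for Mir208a, 135 for Mir208b and 66.9 for Mir499. Mir208b and Mir499 were called higher in replicate 2 with TMM, DESeq2 size factors, the either-strand column and other count minimums. The call on Mir208a was lost with TMM scaling (log2 ratio -0.56) and DESeq2 size factors (-0.53). With Mir206 counts as the odds, an alternative chosen after seeing the data, the log2 ratio of Mir499 was 0.0864 and 1 member was called higher in replicate 2. The split of calls over all genes depended on scaling: with totals, 55 genes were higher in replicate 2, against 110 in replicate 1, while 104 and 70 were with TMM, and 107 and 65 with DESeq2 size factors, or 33.3%, 59.8% and 62.2% of calls higher in replicate 2. With Mir206 counts as the odds, 1 gene was higher in replicate 2 and 297 in replicate 1. Levels without replicate 1 or replicate 2 are the single library values, 18.8 to 31.1 CPM for Mir208a, 219 to 994 CPM for Mir208b and 188 to 416 CPM for Mir499; with 2 libraries these say nothing about stability. A ratio between the libraries cannot be had without one of them. No paired analysis was possible because the libraries form 1 group. Depth limits Mir208a most, with 49 counts in replicate 1.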

Other observations

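A further microRNA gene lies on the same strand within a myosin heavy chain gene, Mir6923 in Myh3, the gene of embryonic skeletal myosin. It had 1 count in replicate 2 and 0 in replicate 1, so it was not detectable above the level that a count of 0 allows, 0.553 CPM in replicate 2 and 1.91 CPM in replicate 1. No microRNA gene was annotated within 50000 bases of Mir499, and the only one that near Mir208b was Mir208a. No reads were counted on the opposite strand of Mir208a, Mir208b or Mir499 in either library, and their either-strand counts equalled their gene-strand counts.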
